A study of Gasterosteus aculeatus with 18 samples.

Results

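A group of 150 genes stood high in stickleback egg pools with replicate numbers 3, 4 and 5 and low in pools 1 and 6. They were chosen for this order over the pools of all cortisol doses together. They come from a table of 17253 genes in 18 pools of threespine stickleback (Gasterosteus aculeatus) eggs. Every pool held 10 wild-type eggs of a clutch at an age of 72 hours after fertilization, and messenger RNA was profiled by sequencing. The labels name 6 control, 6 low and 6 high pools, numbered 1 to 6 in each group, and give maternally derived cortisol as the agent in the low and high groups. The design text lists 0, 5 and 10 µg/L of cortisol, which are taken here as control, low and high. Nothing in the labels states what a replicate number stands for, so a number is not called a clutch here, and the p-values below measure only the spread between these pools. In pooled eggs, fewer cells of a type and less RNA per cell cannot be told apart.

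The genes were chosen by measured values, the deposited normalised counts on the log2(value + 1) scale. Of 16103 genes with a mean of at least 11.4 over the 18 pools, the 100 most abundant were set aside, which left 16003. In 2668 of these the lowest of the 9 pools numbered 3 to 5 exceeded the highest of the 6 pools numbered 1 and 6. The reverse held in 3008 genes. In 2065 of the 2668 the mean of the 3 pools numbered 2 lay between the set means, and the 150 with the largest difference of set means are described here. The difference between the sets is therefore a property of the choice and is given without a test.

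Fish eggs carry RNA, protein, yolk and hormones laid down by the mother, and the embryo's own genome takes over transcription during early development. Cortisol is the main glucocorticoid of fish, and it acts on genes through the glucocorticoid receptor, a hormone-bound transcription factor. The ABC transporters named in the title of the series are membrane pumps that use ATP to move compounds, steroids among them, out of cells. The deposited table names genes by Ensembl identifier only and 0 of its identifiers could be matched to a symbol, so the members are given by identifier and no function is assigned to them.

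Column totals of the deposited table differed between the sets, and this touches every level given below. Totals ran from 11.4 to 15.2 M in pools 3 to 5, from 10.4 to 11.8 M in pools 2 and from 8.36 to 9.14 M in pools 1 and 6. The whole numbers that each column skips or doubles gave the factor by which its counts had been scaled, from 0.958 to 1.31 in pools 3 to 5 and from 0.719 to 0.897 in pools 1 and 6. The depth implied by these factors was 10.6 to 12.4 M reads in pools 3 to 5 and 10.2 to 12.1 M in pools 1 and 6, ranges that overlap. The 100 most abundant genes took 31.0 to 39.8% of the total in pools 3 to 5 and 20.4 to 24.3% in pools 1 and 6. Factors for high pool 2 and low pool 4 lay near 1 and were not clearly resolved.

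Scaling all columns to equal totals lowered the median set difference of the members to 1.25, against 1.84 as deposited, and moved the median of all 16103 genes to -0.59. Relative to all genes the members' median difference was 1.84 under equal totals and 1.83 as deposited. Such scaling shifts all genes of a column nearly alike, so this relative value could hardly change. The number of members that still had every pool of numbers 3 to 5 above every pool of numbers 1 and 6 was 117 of 150 under equal totals. As deposited, the choice itself had fixed this at 150 of 150. The count under equal totals was not made over all genes. The part that the scaling played in the difference beyond these values was not tested.

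The set difference of the members ranged from 1.68 to 5.26 on the log2(value + 1) scale, with a median of 1.84, which is 3.59-fold in value + 1. It exceeded 2 in 42 members and 3 in 8 members, so a small group led and the rest lay close to the threshold. The gap between the lowest pool of numbers 3 to 5 and the highest pool of numbers 1 and 6 had a median of 0.71 and exceeded 1 in 38 members. Just inside the threshold lay ENSGACG00000005724, ENSGACG00000017344 and ENSGACG00000010310, each with a difference of 1.68. Just outside lay ENSGACG00000004421, also 1.68 to 2 decimals, and ENSGACG00000001966 and ENSGACG00000020653 at 1.67, so the list ends in a continuum of genes.

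**Figure D1:**
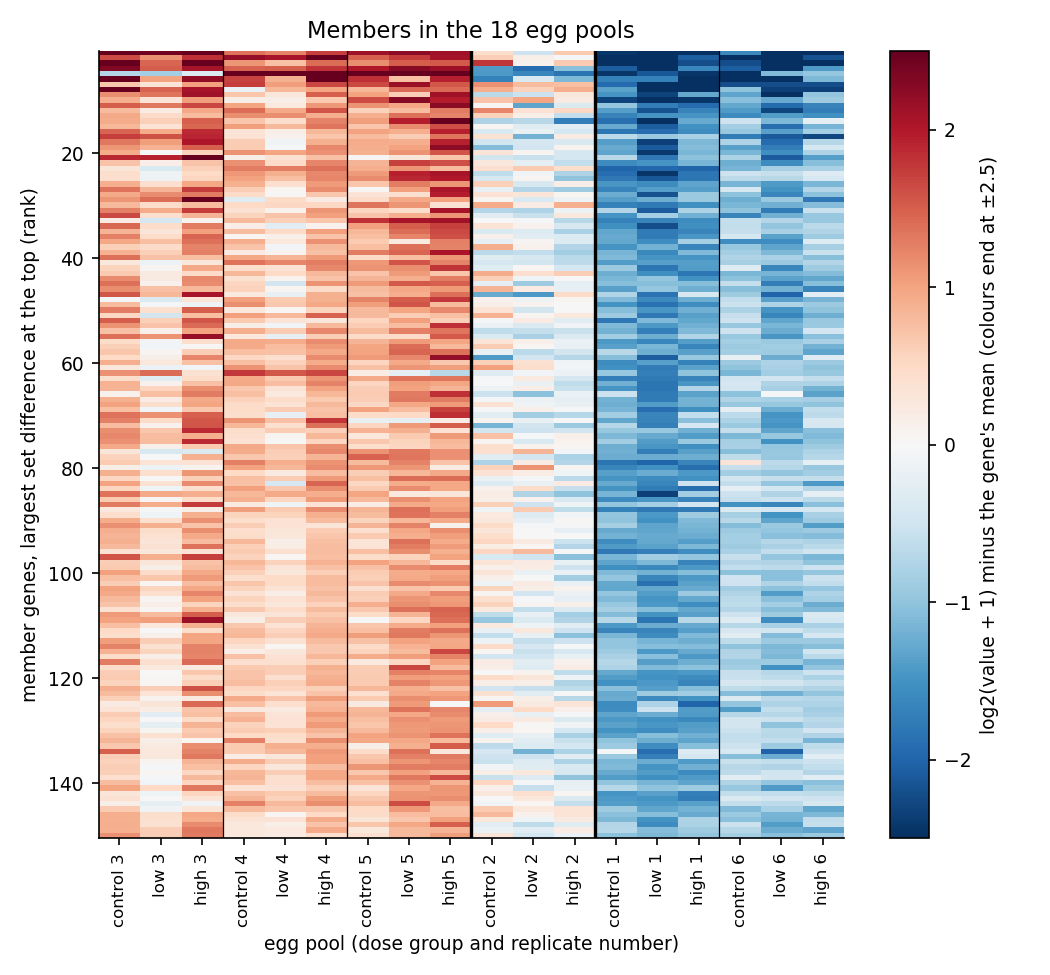
Heat map of the 150 members (rows, by falling set difference) in the 18 pools (columns, by replicate number and within it by dose), coloured by log2(value + 1) minus the gene's mean. Pools 3, 4 and 5 are mostly red, pools 2 are pale and pools 1 and 6 are blue, and low pool 3 is paler than control and high pool 3.

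ENSGACG00000002627 had the largest difference. Its normalised count was 50 to 160 (median 93) in the 9 pools numbered 3 to 5, 28, 14 and 33 in control, low and high pool 2, and 0 to 6 (median 1.5) in the 6 pools numbered 1 and 6. It was almost absent from pools 1 and 6, and pools 2 stood apart from both sets. ENSGACG00000004960 had 510 to 1418 (median 827) in pools 3 to 5, 353, 256 and 223 in control, low and high pool 2 and 18 to 55 (median 25) in pools 1 and 6. The gap of 3.19 between the sets on the log2 scale was the widest of all members. ENSGACG00000018003 had 53 to 238 (median 88) in pools 3 to 5, 111, 34 and 50 in control, low and high pool 2 and 2 to 6 (median 3) in pools 1 and 6. Here the pools numbered 2 overlapped those of numbers 3 to 5 through the control pool.

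Other leading members placed the pools differently. ENSGACG00000009188 had 103 to 184 (median 149) in pools 3 to 5, but 13, 9 and 17 in control, low and high pool 2, beside 4 to 13 (median 8) in pools 1 and 6. Pools 2 resembled pools 1 and 6 in this gene. ENSGACG00000014764 had 11 to 16 in the 3 pools numbered 3, 143 to 249 in pools 4 and 5, 5 to 7 in pools 2 and 1 to 10 in pools 1 and 6. Its large difference rested on numbers 4 and 5, since the pools numbered 3 exceeded pools 1 and 6 by a gap of only 0.13 on the log2 scale.

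The remaining leading members were of low abundance. ENSGACG00000009110 had 10 to 45 (median 22) in pools 3 to 5, 1, 4 and 2 in control, low and high pool 2 and 0 to 2 (median 0.5) in pools 1 and 6. ENSGACG00000013772 had 28 to 103 (median 67) in pools 3 to 5, 50, 39 and 38 in control, low and high pool 2 and 2 to 5 (median 4) in pools 1 and 6. ENSGACG00000019561 had 8 to 55 (median 26) in pools 3 to 5, 18, 14 and 18 in control, low and high pool 2 and 0 to 4 (median 1) in pools 1 and 6. In the last of these, control pool 4 at 8 was the lowest of its set. The differences of 3.86, 3.73 and 3.54 of these genes depend on the pseudocount, because the values in pools 1 and 6 are close to 0. The same holds for the larger differences of ENSGACG00000002627 and ENSGACG00000018003, with 0 to 6 and 2 to 6 in these pools. Of all members, 3 were at a value of 5 or less in every pool of numbers 1 and 6, and 3 had a value of 0 in some pool, so for most members pools 1 and 6 held a reduced level and not an absent transcript.

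**Figure D2:**
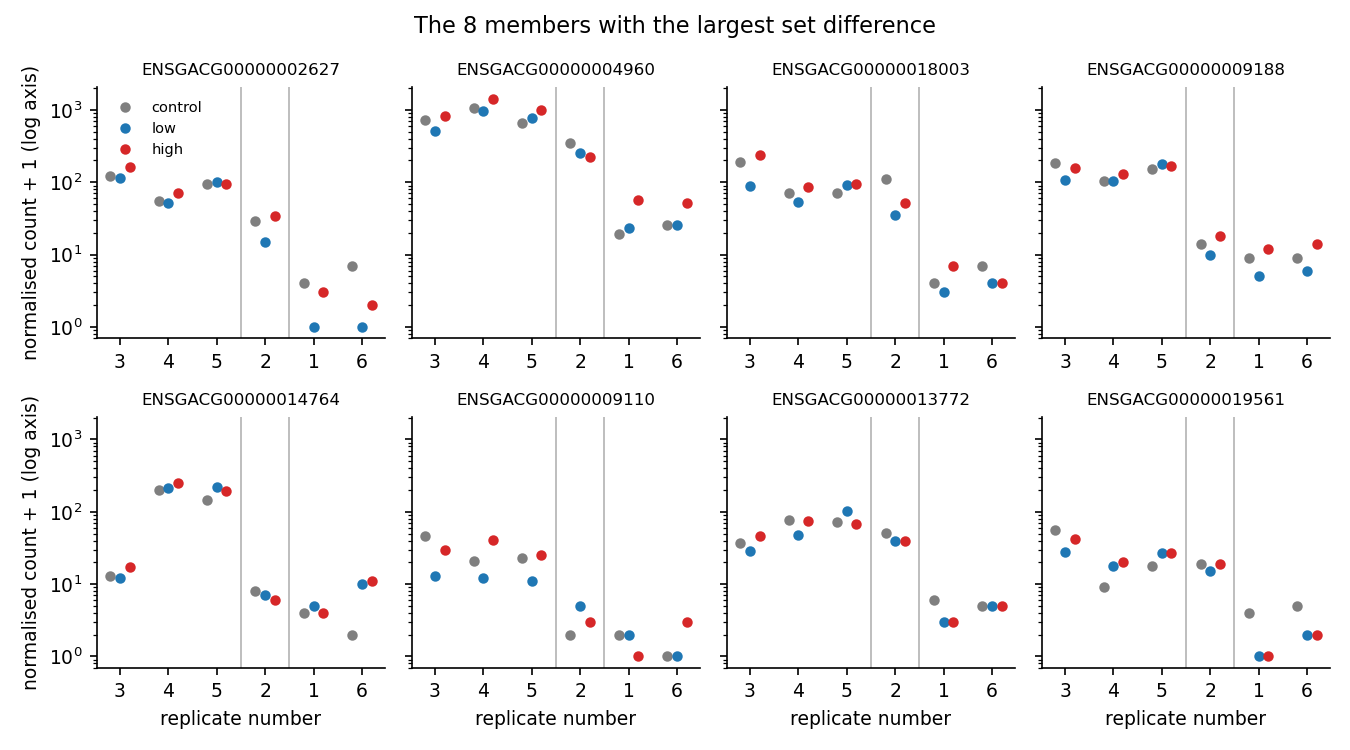
Normalised count + 1 (log axis) of the 8 members with the largest set difference, by replicate number, with 1 point per pool coloured by dose group. In each panel the points of numbers 3, 4 and 5 lie above those of numbers 1 and 6, while number 2 lies near either set or between them, and ENSGACG00000014764 is high in numbers 4 and 5 only.

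Averaged over all pools, the members were more abundant than the average gene. Their mean normalised count ranged from 11.8 to 17193 with a median of 403, against a median of 177 over the 16103 genes. A mean over 1000 was found in 30.7% of the members and in 11.1% of all genes, and one under 50 in 12.7% of the members and 20.8% of all genes. Normalised counts are not corrected for gene length, so these levels do not rank genes by transcripts.

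ENSGACG00000003995 was the most abundant member, with 16561 to 35803 (median 22514) in pools 3 to 5, 14152, 12966 and 12159 in control, low and high pool 2 and 4201 to 8543 in pools 1 and 6. ENSGACG00000006058 had 11221 to 40290 (median 22856) in pools 3 to 5 and 3886 to 8633 in pools 1 and 6. ENSGACG00000012858 had 7570 to 34476 (median 17154) in pools 3 to 5 and 1526 to 6560 in pools 1 and 6. All of these separated the sets at counts over 1000. At the other end ENSGACG00000015954 had 10 to 35 (median 16) in pools 3 to 5 and 2 to 9 in pools 1 and 6, and ENSGACG00000018249 had 11 to 31 (median 15) in pools 3 to 5 and 2 to 6 in pools 1 and 6.

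Together the members took 1.88 to 2.61% of the column total in pools 3 to 5 (mean 2.25 ± 0.282, SD, n = 9), 1.37 to 1.65% in pools 2 and 0.745 to 1.06% in pools 1 and 6 (mean 0.924 ± 0.123, SD, n = 6). The ranges of the 3 sets did not overlap when each pool was measured against its own total, an order that the choice of the members favours. Without the members the totals still ran from 11.1 to 14.8 M in pools 3 to 5 and from 8.29 to 9.04 M in pools 1 and 6, so the members make up a small part of the difference in totals. Genes at a value of 5 or less numbered 418 to 1220 in pools 3 to 5 and 358 to 530 in pools 1 and 6, with high pool 3 at the highest count.

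**Figure D3:**
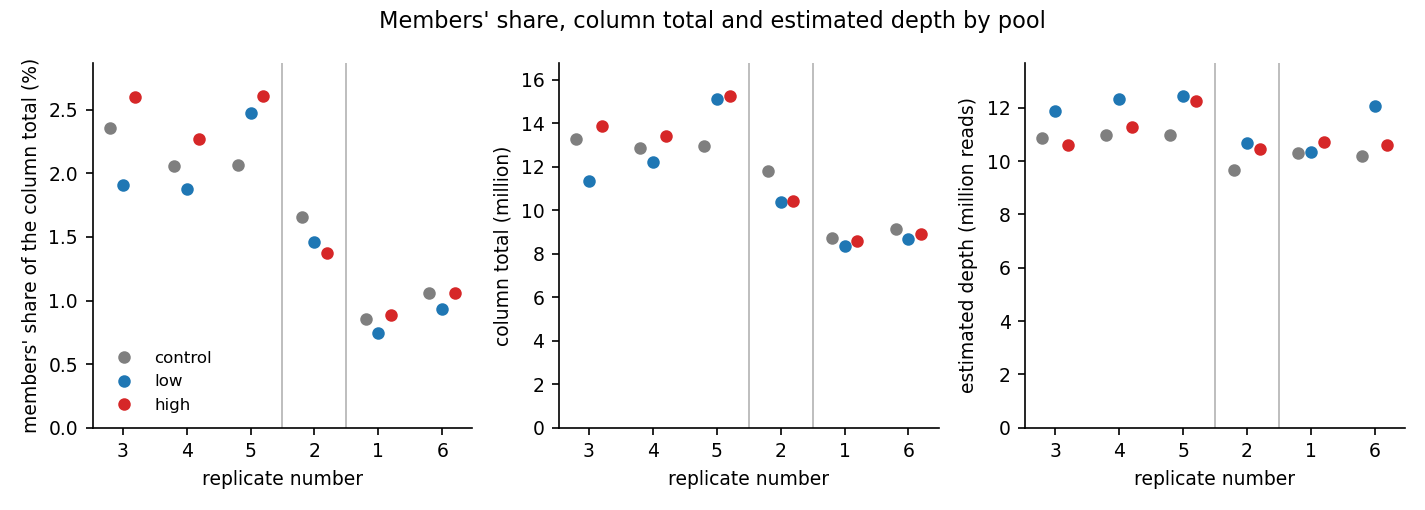
Share of the column total taken by the 150 members (left, %), column total (middle) and estimated depth in reads (right) by replicate number, with 1 point per pool coloured by dose group. Share and total are higher in numbers 3 to 5 than in numbers 1 and 6, the total of control pool 2 reaches into the range of numbers 3 to 5, and the depths of 10.6 to 12.4 and 10.2 to 12.1 M reads overlap.

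Within the high set the members did not move as a single block. Number 5 had the highest mean in 87 members, number 3 in 47 and number 4 in 16, with ENSGACG00000018249, equal in numbers 3 and 4, counted in number 3. Of all 16103 genes, 4736 were highest in number 5, 6086 in number 3 and 5281 in number 4. The median over the members of the log2 mean was 8.88 in number 3, 9.07 in number 4 and 9.44 in number 5, while the median over all genes stayed between 7.37 and 7.38 in these numbers. The excess of the highest number over the next of the 3 had a median of 0.26 on the log2 scale. The highest and the lowest of the 3 numbers lay 0.66 apart in the median member, against 0.46 in the median of all genes. They lay more than 1 apart in 27 members, a count that was not made over all genes. Column totals were 13.0, 15.1 and 15.2 M in control, low and high pool 5, against 11.4 to 13.9 M in pools 3 and 4. The order of these numbers in the members was not looked up with equal totals.

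Larger differences were counted where the 3 pools of one number did not overlap those of another and their means were more than 1 apart on the log2 scale. Number 5 stood above number 3 in this sense in 11 members (all genes, 3.99%), and number 3 above number 5 in 3 (all genes, 1.52%). Number 5 stood above number 4 in 4 members (all genes, 1.22%) and number 4 above number 5 in 2 (all genes, 1.59%). Number 3 stood above number 4 in 10 members (all genes, 2.09%), and number 4 above number 3 in 5 (all genes, 5.75%). As shares of the 150 members the highest were 7.33% for number 5 above number 3 and 6.67% for number 3 above number 4, and the lowest was 1.33% for number 4 above number 5.

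Some members singled out 1 number. ENSGACG00000005072 had 2816, 2891 and 6519 in control, low and high pool 3, against 781 to 1269 in pools 4 and 5, 515 to 558 in pools 2 and 180 to 468 in pools 1 and 6. Number 3 exceeded the next number by 1.88 on the log2 scale, the widest such excess among the members. ENSGACG00000004818 had 808, 955 and 986 in control, low and high pool 5, against 170 to 399 in pools 3 and 4, 140 to 229 in pools 2 and 70 to 151 in pools 1 and 6. ENSGACG00000012351 had 818, 1282 and 1027 in control, low and high pool 5, against 293 to 547 in pools 3 and 4, 308 to 520 in pools 2 and 30 to 142 in pools 1 and 6. In both genes number 5 led by more than 1 on the log2 scale, with excesses of 1.30 and 1.20. ENSGACG00000004265 was highest in number 4, with 143, 123 and 133 in control, low and high pool 4, against 25 to 110 in pools 3 and 5 and 12 to 22 in pools 1 and 6. Its excess over the next number was 0.69, and its pools numbered 5, at 25 to 47, lay close above pools 1 and 6.

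Numbers 1 and 6 were not alike in these genes. The mean of number 6 exceeded that of number 1 in 129 of the 150 members, against 49.7% of all genes, and the difference had a median of 0.42 among the members, against -0.0021 in all genes. With the count rule used above, number 6 stood above number 1 in 15 members, which is 10.0% of them (all genes, 0.938%), and number 1 above number 6 in 1 member (all genes, 0.168%). The choice of the members used both numbers, so no test was made. The share of the members was also higher in pools 6, at 0.933 to 1.06%, than in pools 1, at 0.745 to 0.884%. The column totals of pools 6, at 8.68 to 9.14 M, overlapped those of pools 1, at 8.36 to 8.72 M. Within each dose group, however, pool 6 had the larger total, with 9.14 and 8.72 M in control, 8.68 and 8.36 M in low and 8.92 and 8.58 M in high pools 6 and 1.

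ENSGACG00000000350 had 74, 37 and 50 in control, low and high pool 6 and 16, 14 and 18 in control, low and high pool 1, a difference of 1.64 on the log2 scale, while pools 3 to 5 held 75 to 142. The control pool numbered 6 almost reached the lowest of pools 3 to 5. ENSGACG00000012858, described above for its abundance, had 5548 to 6560 in pools 6 and 1526 to 2373 in pools 1, a difference of 1.57. The opposite order was rarer: ENSGACG00000018245 had 15 to 22 in pools 6 and 40 to 48 in pools 1, a difference of -1.25, and ENSGACG00000006058 had 3886 to 5825 in pools 6 and 6094 to 8633 in pools 1, a difference of -0.62.

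Pools numbered 2 took an intermediate place that varied from member to member. On a scale with the mean of numbers 1 and 6 at 0% and that of numbers 3 to 5 at 100%, the number 2 mean had a median of 53.7%, with quartiles of 33.9 and 65.7%. It lay in the lowest, middle and highest part of 3 equal parts of this scale in 36, 79 and 35 members. The rule fixed only that this mean lies between the set means. All 3 pools numbered 2 exceeded every pool of numbers 1 and 6 in 96 members, and in 26 members they also stayed below every pool of numbers 3 to 5. The rule that chose the members favours such counts, and they were not made over all genes.

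At the ends of this scale lay genes in which number 2 joined 1 set. ENSGACG00000005505 had 250, 177 and 201 in control, low and high pool 2, within the 153 to 277 of pools 3 to 5 and far from the 37 to 61 of pools 1 and 6. ENSGACG00000020925 likewise had 1315, 1912 and 923 in control, low and high pool 2, beside 812 to 2005 in pools 3 to 5 and 237 to 592 in pools 1 and 6. Conversely, ENSGACG00000011757 had 15, 25 and 18 in control, low and high pool 2, within the 10 to 26 of pools 1 and 6 and below the 38 to 106 of pools 3 to 5. ENSGACG00000002475 had 2567, 1516 and 2005 in control, low and high pool 2, within the 846 to 3403 of pools 1 and 6 and below the 4121 to 9786 of pools 3 to 5.

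**Figure D4:**
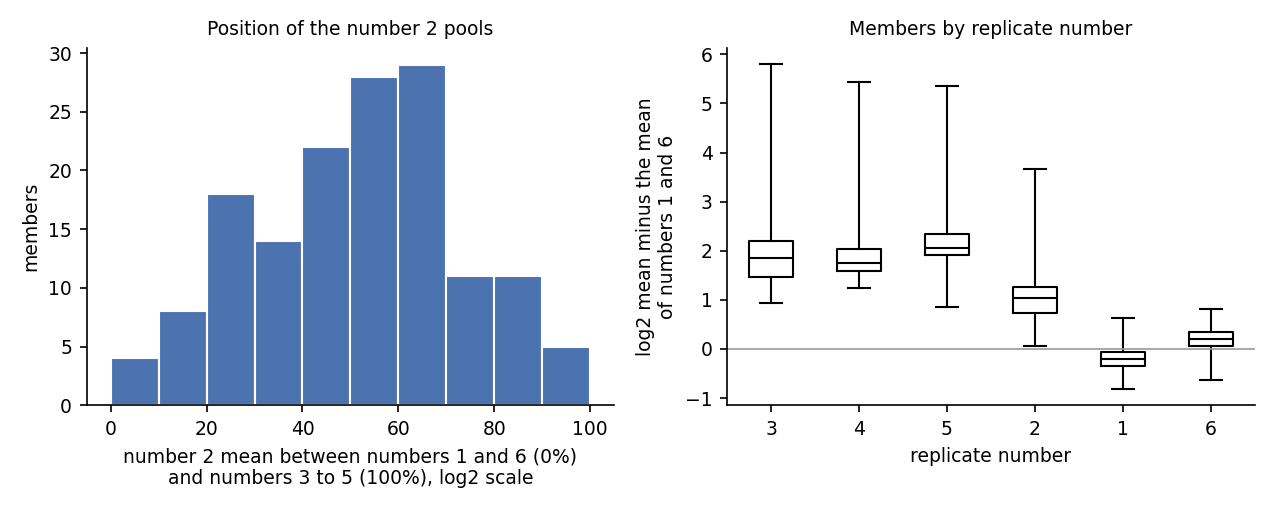
Left, the members by the position of their number 2 mean between numbers 1 and 6 (0%) and numbers 3 to 5 (100%). Right, the log2 mean of each number minus the mean of numbers 1 and 6, with boxes for the quartiles, lines for the medians and whiskers to the lowest and highest member. Number 5 has the highest median, number 2 lies midway and number 6 lies slightly above number 1.

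Pools of the same number also differed among themselves, and more in the members than in most genes. After removal of the means of number and dose group, the residual SD had a median of 0.30 on the log2 scale among the members, against 0.20 over all genes and 0.17 over the 9366 genes with means in the middle range of the members' means. The SD was smallest in ENSGACG00000008583, ENSGACG00000015943 and ENSGACG00000007655, at 0.17, 0.18 and 0.18. ENSGACG00000008583 had 163, 168 and 165 in control, low and high pool 1 and 1104, 1011 and 1052 in control, low and high pool 4. The pools were almost equal within these numbers, while control, low and high pool 5 ranged more widely at 921, 1287 and 1021. The largest SDs, 0.78, 0.68 and 0.65, were those of ENSGACG00000009110, ENSGACG00000019561 and ENSGACG00000002627, whose counts in pools 1 and 6 are near 0.

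The dose groups contain the same numbers, so their comparison is balanced over the sets that chose the members. High against low cortisol set a dose above natural levels beside a dose meant to mirror mothers exposed to predators. Of the 150 members, 124 had a higher and 26 a lower mean in high pools, while 48.6% of all genes had a higher one. The median log2 difference was 0.20 in the members, against -0.0066 over all genes. In limma without a replicate block 0 of the 150 members were called at an adjusted p under 0.05, as were 0 of all genes (0%). In the same fit 1 member (0.667%) had an unadjusted p under 0.05, against 2.39% of all genes. That fit counts the differences between numbers as spread, and the members were chosen for those differences. Pools of the same number in different groups deviated together, with r = 0.67 to 0.90 across genes, but pools of different numbers reached r = 0.76, so the ranges overlap. With the replicate number as a block, 30 members were called higher in high than in low pools, which is 20.0% of the members (all genes, 4.35%), and 0 were called lower (all genes, 3.73%). In the blocked fit 58 members, which is 38.7%, had an unadjusted p under 0.05, against 23.8% of all genes. The members share pools and vary together, so the 30 calls are not independent of each other.

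The 30 members rose by 0.39 to 1.31 on the log2 scale, with a median of 1.54-fold, in 6 of 6 numbers for 21 of them and in 5 of 6 for 9. The call in the blocked fit itself favours large differences that are even over the numbers. The same values were not taken over all called genes. ENSGACG00000008610 had 146 to 808 (median 311.5) in high pools and 47 to 360 (median 120) in low pools. The groups overlap, but the high pool exceeded the low pool of its number in 6 of 6 numbers, for example with 267 in the high and 70 in the low pool of number 2. Its log2 fold change was 1.31 ± 0.17 (SE in limma with the block, adjusted p = 0.000305), and without the block the SE was 0.59 and the adjusted p 0.9999. ENSGACG00000015171 had 30 to 326 (median 151) in high pools and 12 to 190 (median 70.5) in low pools, and the high pool was the higher one in 6 of 6 numbers. The log2 fold change of ENSGACG00000015171 was 1.15 ± 0.16 (SE, limma with the block, adjusted p = 0.000542, without the block 0.9999).

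ENSGACG00000018998 had 39 to 281 (median 102.5) in high pools and 15 to 129 (median 55) in low pools, with the high pool above the low pool in 6 of 6 numbers. Its log2 fold change was 1.10 ± 0.17 (SE, limma with the block, adjusted p = 0.000887, without the block 0.9999). Of the leading members, ENSGACG00000004960 rose by 0.61 on the log2 scale in 5 of 6 numbers (limma with the block, adjusted p = 0.0444), and ENSGACG00000009188 by 0.68 in 5 of 6 (adjusted p = 0.0249). Neither passed when columns were scaled to equal totals (adjusted p = 0.0789 and 0.0597 with the block).

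In 28 of the 30 called members the mean of the control pools was intermediate to those of low and high pools, a place that choosing genes by their difference between high and low favours. Of the members highest in number 3, 29.8% (14 of 47) were called, of those highest in number 4, 25% (4 of 16) and of those highest in number 5, 13.8% (12 of 87). Of all genes highest in the same numbers, 6.82, 0.814 and 5.11% were called higher. The difference between these classes was not tested. The share called higher was 5.88% (1 of 17) of the members with a mean log2 value under 5 and 25.7% (9 of 35) from 5 to 7. It was 23.1% (9 of 39) from 7 to 9 and 18.6% (11 of 59) over 9. Of all genes in the same classes 1.12, 2.61, 5.12 and 7.52% were called higher, in the order given.

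The median difference of high minus low was uneven over the numbers. It was 0.67 in number 3, 0.45 in number 4 and 0.050 in number 5, then -0.15 in number 2, 0.18 in number 1 and 0.14 in number 6. Numbers 3 and 4 thus carried the largest differences. The high pool had the larger column total in 6 of 6 numbers, with 13.9 M in high and 11.4 M in low pool 3, and 13.4 M in high and 12.2 M in low pool 4. With columns scaled to equal totals and the block, 24 members, all of them among the 30, were called higher (all genes, 1.88%) and 0 lower (all genes, 4.12%). This scaling moved the median difference of all genes to -0.093 and that of the members to 0.12.

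The count of 30 depended on single pools. It was 16, 19 and 17 without high pools 3, 4 and 5, and 15, 17 and 15 without low pools 1, 3 and 6. The share of all genes called higher, 4.35% with all pools, was also smaller in these fits, at 2.32, 3.5 and 2.32% without high pools 3, 4 and 5 and 2.24, 2.55 and 2.13% without low pools 1, 3 and 6. Without all pools numbered 1, 3, 4 and 6 the count was 15, 11, 17 and 16 members, and the share of all genes was 2.22, 1.77, 3.53 and 2.06%. No member was called lower in any of these fits.

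High against control set the dose above natural levels beside untreated pools, and it shares the high pools with the comparison above. Without the block 0 members and 0% of all genes were called in limma, with 0 members at an unadjusted p under 0.05, against 0.981% of all genes. In the blocked fit 25 members, which is 16.7%, had an unadjusted p under 0.05, close to the 16.4% of all genes. With the block 3 members were called higher, which is 2% of them (all genes, 0.727%), and 0 lower (all genes, 0.441%), and these 3 were also among those called between high and low. ENSGACG00000019000 had 35 to 361 (median 127) in high pools and 29 to 164 (median 76.5) in control pools. It was higher in the high pool in 6 of 6 numbers, with a log2 fold change of 0.75 ± 0.16 (SE, limma with the block, adjusted p = 0.0290, without the block 1).

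ENSGACG00000015171 rose by 0.73 ± 0.16 and ENSGACG00000008610 by 0.75 ± 0.17 on the log2 scale (SE, limma with the block, adjusted p = 0.0290 and 0.0344, without the block 1 for each), both in 6 of 6 numbers. Their values were 30 to 326 in high and 26 to 167 in control pools for ENSGACG00000015171, and 146 to 808 in high and 80 to 563 in control pools for ENSGACG00000008610. Scaled to equal totals, with the block, the adjusted p of ENSGACG00000019000, ENSGACG00000015171 and ENSGACG00000008610 was 0.0615, 0.0717 and 0.0693, and 0 members were called. The count of 3 was 0 without high pool 5 or 6 or without control pool 2, 3 or 5, and 1 without high pool 3 or control pool 4. It was 7 without high pool 2 (all genes called higher, 0.733%) and 5 without control pool 1 (all genes, 0.801%). Without high pool 4, 3 members were called higher (all genes, 0.851%) and 1 lower (all genes, 0.652%). The count was 0 without number 3 or 4 and 1 without number 5 or 6. In the fits that left 0 or 1 members the share of all genes called higher was 0.0869 to 0.311%, against 0.727% with all pools.

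Over all members 90 were higher and 60 lower in high than in control pools, while 48.0% of all genes were higher. The median was 0.038 in the members, against -0.0087 in all genes. The numbers went different ways. The members' median was 0.14, 0.20 and 0.44 in numbers 3, 4 and 5, -0.40 in number 2, and -0.061 and -0.083 in numbers 1 and 6. The column totals of high and control pools differed in the same direction as this median in 6 of 6 numbers, for example 15.2 M in high and 13.0 M in control pool 5, and 10.4 M in high and 11.8 M in control pool 2. Under equal totals the members' median was 0.017, against -0.029 in all genes.

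Low against control set the dose meant to mirror exposed mothers beside untreated pools, and it shares pools with both comparisons above. In limma 0 members and 0% of all genes were called without the block, and with it 0 were called higher (all genes, 0%) and 0 lower (all genes, 0%). With an unadjusted p under 0.05 there were 0 members without the block, against 0.484% of all genes, and 41 members with it, which is 27.3%, against 11.1% of all genes. Of the members, 134 had a lower and 16 a higher mean in low pools, while 50.6% of all genes had a higher one. The median was -0.18 in the members, against 0.0020 in all genes. The members' median of low minus control was negative in 5 of 6 numbers, at -0.50, -0.23, -0.21, -0.28 and -0.20 in numbers 3, 4, 2, 1 and 6, and positive in number 5, at 0.37. Column totals of low and control pools followed the same direction in 6 of 6 numbers, with 15.1 M in low and 13.0 M in control pool 5, and 11.4 M in low and 13.3 M in control pool 3. Under equal totals the members' median was -0.12, against 0.068 in all genes. The part that these totals play in the dose differences of the members beyond the values with equal totals was not tested.

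ENSGACG00000000007 had the smallest p among the members in the blocked fit. It had 118 to 726 (median 366) in low pools and 220 to 840 (median 654.5) in control pools, and its low pool was the lower one in 6 of 6 numbers. The log2 difference was -0.69 ± 0.14 (SE, limma with the block, adjusted p = 0.0960, without the block 1). ENSGACG00000011265 had 563 to 2777 (median 1422) in low pools and 879 to 3562 (median 1863.5) in control pools, a difference of -0.41 ± 0.095 that was negative in 6 of 6 numbers (SE, limma with the block, adjusted p = 0.132). ENSGACG00000018303 had 1170 to 11098 (median 7023.5) in low pools and 2163 to 15196 (median 9289.5) in control pools, a difference of -0.56 ± 0.13 that was negative in 5 of 6 numbers (SE, limma with the block, adjusted p = 0.132). Each of them missed the threshold here, and each was among the 30 members called higher in high than in low pools. The count of 0 became 8 without low pool 5, 12 without control pool 5, 1 without control pool 4 and 16 without all pools numbered 5, and each of these calls was lower in low pools. Of all genes, 0.938, 1.27, 0.0311 and 1.81% were called lower in the same fits, in the order given.

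**Figure D5:**
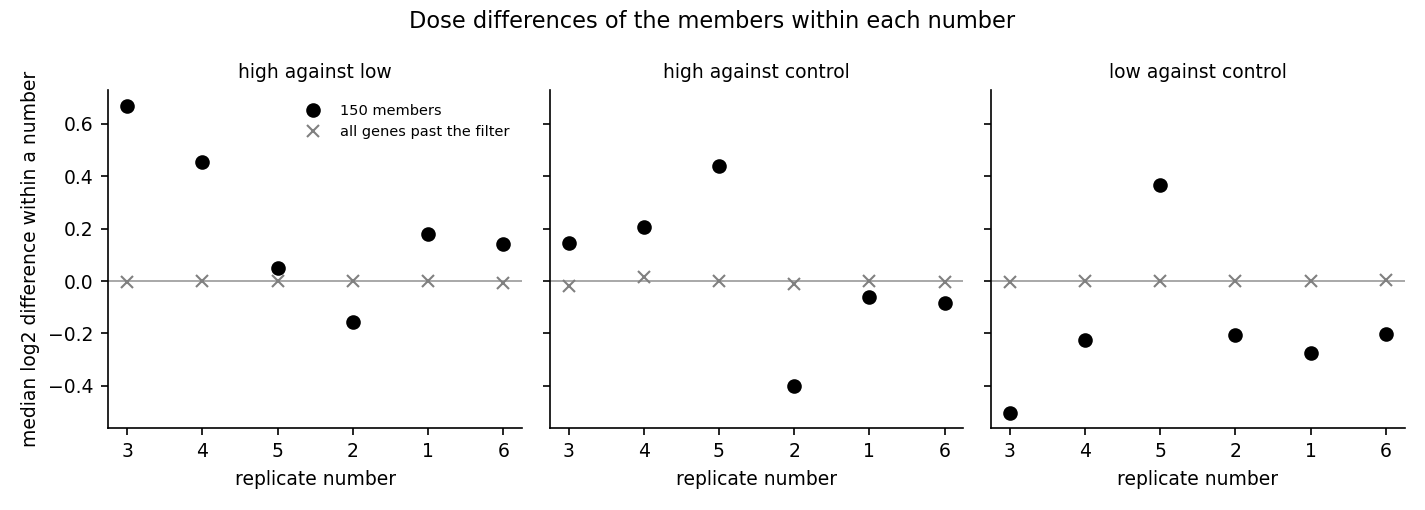
Median log2 difference over the 150 members (filled points) and over all genes past the filter (crosses) within each replicate number, for high against low, high against control and low against control cortisol. High minus low is above 0 except in number 2, low minus control is below 0 except in number 5, and the medians of all genes lie near 0.

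Genes with the same or the opposite order of the sets were set beside the members for high against low, with the block in limma. Of the 1915 other candidates, which also stood high in numbers 3 to 5 but by a smaller difference, 126 (6.58%) were called higher and 2 (0.104%) lower. Of the 3008 genes with numbers 3 to 5 all below numbers 1 and 6, 18 (0.598%) were called higher and 98 (3.26%) lower. The median of high minus low was 0.20 in the members, 0.073 in the other candidates and -0.050 in the genes of opposite order. The median of low minus control was -0.18 in the members, -0.093 in the other candidates and 0.084 in the genes of opposite order. Both contrasts share the low pools and are given side by side only. The high pool had a larger column total than the low pool in 6 of 6 numbers. The other candidates and the genes of opposite order were not compared with columns scaled to equal totals.

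The order of the sets was also looked up in pools that a choice did not use. The rule applied to the 6 control pools alone picked 150 genes, of which 127 had all pools 3 to 5 above all pools 1 and 6 in the low and high groups, against 20.6% of all genes. Genes picked in the low pools alone did so in 133 of 150 cases in the other groups, against 21.5% of all genes, and those picked in the high pools alone in 128 of 150, against 20.7%. These are counts of genes that vary together in the same numbers, which favours high counts, and no test was made on them. The other groups hold pools of the same numbers, so they may not be an independent check of the choice. The separate choices held 87, 94 and 102 of the 150 members in control, low and high pools.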

How the data were processed

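The authors deposited 1 table with a score per gene and pool, that is, counts that had been normalised between samples and rounded to whole numbers, per the file's name and values. The tools listed, with no role or order, are Bowtie2 2.1.0, TopHat2 2.0.8, TopHat, HTSeq, edgeR, Cufflinks 2.2.0, Cuffdiff and FastQC, per the submitters' processing notes. A genome build is not given in the sources used here. Column totals differ between pools, so levels depend on how columns are scaled.

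The 150 members, the lists and the comparisons were chosen with earlier results of these data known. Gene lists by symbol could not be applied without symbols and are not analysed here. Values were taken as log2(value + 1), which understates changes of low genes. The filter was 11.4 for the mean over pools, set from the average column total. One limma fit (limma 3.58.1, R 4.3.3) covered all 16103 genes and 18 pools, with a trended variance and Benjamini-Hochberg adjustment at 0.05, without a replicate block as the main fit and with the replicate number as a block as the alternative, and members were read from that fit.

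After removal of group means, pools of the same number in different groups correlated at r = 0.67 to 0.90 across genes, above the threshold of 0.1. Pools of different numbers passed it too, reaching 0.76, so this threshold cannot show that the numbers pair the pools. No label states a pairing, and the fit with the block is given as an alternative that assumes it. The scaling factor of each column was found from the whole numbers that values up to 300 skip or double, in Python 3.11.15. Reads were not recovered and no count model was fitted.

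Genes named in the text are the 8 members of largest set difference, the 3 just inside and 3 just outside the threshold, the 3 with the smallest blocked p per dose contrast, and the extremes of abundance, of single numbers, of numbers 6 and 1, of number 2 and of residual SD. Leading members that were called in a dose contrast are also given there. Alternatives were another pseudocount, filter, scaling, variance model and threshold, and leaving out single pools or numbers.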

Additional observations from a re-analysis of the deposited data

Results flagged for a closer look

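In 123 groups of 6 pools, made from the column total, the members' share and the values of the named genes in each dose group, Dixon's ratio marked 7 values as far from the other 5, where chance marks about 5% of groups, here 6.15. Most of these groups hold genes chosen for differences between numbers, so that rate is not a fair standard for them. Of the genes below, ENSGACG00000005072, ENSGACG00000004818 and ENSGACG00000004265 had been named because 1 number stood above the rest. ENSGACG00000005072 stood at 2816 in control pool 3 (439 to 839 in the other control pools), 2891 in low pool 3 (180 to 997) and 6519 in high pool 3 (294 to 1269). ENSGACG00000004818 stood at 955 in low pool 5 (71 to 345) and 986 in high pool 5 (76 to 367). ENSGACG00000004265 stood at 133 in high pool 4 (20 to 54), and ENSGACG00000019561 at 55 in control pool 3 (3 to 18).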

How the results depend on the processing

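Without the replicate block, 0 members and 0 of all genes were called in each dose contrast and in each of 8 other settings. With the block, high against low called 30 members, 30 with a pseudocount of 8, 29 without a filter, 27 with a filter 5 times as high (127 members tested), 30 with equal medians, 29 with quantile normalization, 24 with equal totals, 19 without the variance trend and 40 at an adjusted p under 0.10. Of all genes, 4.35, 4.53, 4.05, 5.49, 4.9, 4.2, 1.88, 2.81 and 7% were called higher in the same fits, in the order given. High against control called 3 with the block, 3 under each of these filters, pseudocount, median and quantile settings, 5 at an adjusted p under 0.10, and 0 with equal totals or without the trend. Here 0.727% of all genes were called higher with the block and 0.649 to 0.888% under these filters, pseudocount, median and quantile settings. The share was 1.78% at an adjusted p under 0.10, 0.236% with equal totals and 0.0932% without the trend. Low against control called 0 with the block, and 1, lower in low pools, at an adjusted p under 0.10 (all genes lower, 0.0932%). Without single pools or numbers the blocked counts ranged from 11 to 40 in high against low, from 0 to 7 in high against control and from 0 to 16 in low against control. In these fits 1.77 to 5.29% of all genes were called higher in high against low and 0.0869 to 1.06% in high against control. Between 0 and 1.81% were called lower in low against control. The cause was not tested. The block also moved the calls among all genes, to 700 higher and 600 lower in high against low and 117 and 71 in high against control.

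The members' median difference without single numbers ranged from 0.11 to 0.30 in high against low, from -0.039 to 0.13 in high against control and from -0.27 to -0.13 in low against control. The rule kept 134 to 145 of the 150 members without single pools, 125 with a pseudocount of 8, 127 with the higher filter, 139 without one, 123 with the most abundant genes kept, 147 with equal medians, 109 with quantile normalization and 103 with equal totals. It kept 87, 94 and 102 when applied to control, low and high pools alone, which have fewer samples. Equal totals were added after the data were seen. Counting error limits members with values near 0 in pools 1 and 6, and the estimated depth of the pools, 9.66 to 12.4 M reads, is itself approximate.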
